A study of Caenorhabditis elegans with 2 samples.

Results

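The insulin signalling genes of Caenorhabditis elegans were examined for regions enriched by precipitation of tagged MES-2, the worm Enhancer of zeste protein. The 8 genes were set by name as daf-2, age-1, pdk-1, akt-1, akt-2, sgk-1, daf-18 and daf-16, out of 19973 protein-coding genes of the nuclear genome. A region was assigned to a gene where its summit lay inside the annotated gene or within 2 kb of either end. Chromatin immunoprecipitation and sequencing had been done on whole hermaphrodites at the L4 larval stage of strain OP248, a transgenic line with GFP and FLAG at the C-terminus of MES-2, with an antibody against GFP. The 2 samples are biological replicates 1 and 2 of this 1 group, and the age of the larvae is given as unknown. Whether untagged MES-2 was also present is not stated, and whole animals mix germ line and somatic cells that cannot be told apart. No control sample was analysed here, so the values describe where regions lay and how high they ranked, with no test between groups.

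In the worm, insulin-like peptides bind the receptor DAF-2, and the signal passes through the phosphoinositide kinase AGE-1 to PDK-1, AKT-1, AKT-2 and SGK-1. The phosphatase DAF-18 opposes AGE-1, and AKT kinases keep the forkhead factor DAF-16 out of the nucleus. The pathway is known for its control of dauer arrest, metabolism, stress resistance and lifespan. MES-2 is the catalytic subunit of the worm Polycomb repressive complex, which methylates histone H3 and is known for silencing genes in the germ line.

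The authors' thresholded list held 5501 regions on ce11, with a median signal value of 139.9 and a lowest value of 73.5. The pooled list of both replicates and each replicate list held 30000 regions, of which the 5501 strongest pooled regions were the thresholded ones. The signal is the authors' own value for a region, and neither its scale nor its relation to depth is stated. Ranks, counted from 1 for the highest signal within a list, are therefore set beside the signals. Read counts are not in these lists, so depth is unknown, and a gene without a region is not shown to lack MES-2.

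The bases around the summits of 6 thresholded regions are shown first, because they are both regions of pdk-1, the highest at daf-18, akt-2 and akt-1 and, for daf-2, the region with more copies of the motif marked. Each is 101 bp centred on the summit, read from the WBcel235 genome on the plus strand. Capitals mark GAGAGA or its reverse complement, the most common of the 3 motifs searched at these genes.
pdk-1, intron, chrX:1323185-1323285: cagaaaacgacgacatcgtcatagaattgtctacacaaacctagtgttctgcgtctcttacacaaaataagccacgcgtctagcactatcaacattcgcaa
pdk-1, upstream, chrX:1319901-1320001: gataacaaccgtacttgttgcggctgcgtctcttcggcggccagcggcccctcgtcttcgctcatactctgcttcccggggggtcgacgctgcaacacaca
daf-18, upstream, chrIV:425721-425821: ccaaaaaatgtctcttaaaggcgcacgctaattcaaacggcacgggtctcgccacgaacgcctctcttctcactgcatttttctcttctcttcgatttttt
akt-2, upstream, chrX:14146909-14147009: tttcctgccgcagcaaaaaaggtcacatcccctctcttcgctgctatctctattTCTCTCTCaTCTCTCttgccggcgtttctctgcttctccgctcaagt
akt-1, upstream, chrV:10247151-10247251: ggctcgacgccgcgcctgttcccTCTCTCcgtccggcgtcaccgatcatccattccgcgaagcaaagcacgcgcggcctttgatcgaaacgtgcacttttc
daf-2, intron, chrIII:3034690-3034790: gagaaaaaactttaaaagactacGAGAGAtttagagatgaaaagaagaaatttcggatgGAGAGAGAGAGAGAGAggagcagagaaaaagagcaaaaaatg

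These windows differed widely in composition. GC content over the summit and 150 bp on either side was 58.5% at the upstream pdk-1 region and 31.9% at the upstream daf-18 region. The second daf-2 region held 8 overlapping occurrences of GAGAGA in that window, and the akt-2 region held 3. Neither pdk-1 region and neither daf-18 region held the motif. Over all 15 regions the number of copies ran from 0 to 21, and both the lowest region, at 73.8, and the highest, at 431.8, held 0.

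Of the 8 genes, 6 had at least 1 thresholded summit, which is 75% of them, beside 31.8% of all protein-coding genes. Longer genes held a summit more often. Among the 4489 other genes at least as long as akt-1, the shortest of the 8 at 3941 bp, 44.7% had a summit, and among the 1614 at least as long as age-1 the share was 48.4%. The count changed with the flank and with the list. With no flank 3 of 8 genes had a summit, beside 7.27% of all genes, and with a flank of 500 bp 4 of 8, beside 22.3%. Any pooled region was found at 8 of 8 genes, beside 52.3% of all genes, and a pooled region with a −log10 q value of 2 or more at 7 of 8, beside 47.1%. The strongest 5501 regions of replicate 1 alone gave 6 genes, beside 32% of all, and those of replicate 2 gave 6, beside 33.1%. In the strongest 2750 thresholded regions 4 of 8 genes had a summit, beside 22.1%.

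The genes held 15 thresholded regions in all, of which 7 were at daf-16 and 8 at the other 5 genes. Summed over the 8 genes, that was 1.07 regions per 10 kb, beside 0.672 for all protein-coding genes counted the same way and 0.549 for the whole genome. Without daf-16 the other 7 genes held 8 regions, or 0.731 per 10 kb, close to the value of all genes. By gene the density was 2.32 at daf-16, 2.18 at daf-18, 1.88 at pdk-1, 1.26 at akt-1 and 1.19 at akt-2. At daf-2, with the longest window at 50.3 kb, it was 0.397, and age-1 and sgk-1 had no region. Over all 15 regions the median signal was 115.9, and 5 lay above the median of all thresholded regions. That median is weighted by daf-16, whose 7 regions ran from 75.1 to 160.1. The 8 regions at the other 5 genes ran from 73.8 to 431.8.

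Summits near a start of the gene itself were counted by gene. A summit within 500 bp of an own transcript start was found at 1 of the 8 genes, daf-16. That is 12.5%, near the 16.6% of all protein-coding genes. In replicate 2 alone the count was 0, beside 17.1% of all genes. It was also 0 within 250 bp (beside 11.3%) and in the strongest 2750 regions (also 11.3%). Within 1 kb it was 3 (beside 20.6%), and in the pooled list with a −log10 q value of 2 or more it was 3 (beside 27.7%). Of the 15 summits, 4 lay within 500 bp of any protein-coding start, beside 52.2% of all thresholded summits. By annotation 8 lay in introns, 4 between genes, 2 in genes for non-coding RNA outside any protein-coding gene, and 1 in a coding exon. Of the 8 in introns, 5 were at daf-16 and 2 at daf-2, the longest of the genes. In the whole list 24.1% of summits were in introns and 57.3% between genes. No transfer RNA gene lay within 500 bp of any of the 15.

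The receptor gene daf-2 (WBGene00000898, chromosome III from 2994514 to 3040846, minus strand) is the longest of the 8 at 46333 bp, with 7 annotated starts. It held 2 thresholded regions, both in the first intron of its longest transcript. The summit at 3036230 lay 4616 bp downstream of the first start and inside linc-143, a long intergenic non-coding RNA gene on the same strand. Its signal was 93.1 in the pooled list, 37.3 in replicate 1 and 65.1 in replicate 2, with ranks of 4242, 5443 and 3121. The second summit, at 3034740, reached 91.4 in the pooled list and ranked 4324. Replicate 2 placed it at rank 4383 with a signal of 47.6, and replicate 1 listed no overlapping region. Both regions were thus in the lower part of the thresholded list, and 1 of them rested on replicate 2.

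No daf-2 summit past the threshold was near any of its 7 starts. A further 15 pooled regions below the threshold lay across the gene, the highest at rank 7681 with a signal of 56.5. Per 10 kb, daf-2 had 0.397 thresholded regions, the lowest value of the 6 genes that had any. Of the 10 genes at least as long, 7 had a summit and 4 had at least 2.

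For age-1, the catalytic subunit of the phosphoinositide kinase (WBGene00000090, chromosome II from 11519328 to 11527054, minus strand), no thresholded region was found. Its highest pooled region, in a coding exon 338 bp past the first start, had a signal of 23.8 and ranked 23326 of 30000. The strongest region of replicate 1 ranked 17045 with a signal of 15.4, and that of replicate 2 ranked 12751 with a signal of 20.3. No region of replicate 1 overlapped one of replicate 2 in the gene or its flanks. The gene thus had the weakest evidence of a region among the 8.

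The highest values of the pathway were at pdk-1, the kinase that activates the AKT kinases (WBGene00003965, chromosome X from 1321344 to 1327986, plus strand). A summit at 1323235 in the second intron, 1882 bp downstream of the nearer start, had a pooled signal of 431.8 and ranked 581. It reached 252.5 in replicate 1 and 180.8 in replicate 2, with ranks of 491 and 782. The region ran from 1323070 to 1323331, the widest of the 15 at 262 bp. A second summit at 1319951, between genes and 1393 bp upstream, had signals of 269.5, 156.3 and 129.5 in the pooled list, replicate 1 and replicate 2. Its ranks were 1244, 1050 and 1322. Both regions were therefore high in each replicate, with summits at most 32 bp from the pooled ones.

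Among the 6351 protein-coding genes with a thresholded region, 19.9% had a best signal at least as high as that of pdk-1. The thresholded regions directly above and below it in signal order, at 432.1 and 431.6, lay nearest to the starts of crt-1, which encodes calreticulin, and rpt-6, a proteasome ATPase. Those summits were 270 and 247 bp upstream of the starts, whereas the pdk-1 summit was inside the gene.

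The AKT kinases each had 1 thresholded region, upstream of the gene. At akt-1 (WBGene00000102, chromosome V from 10248905 to 10252845, plus strand) the summit lay at 10247201, 1704 bp upstream and inside C12D8.25, a gene for a non-coding RNA on the minus strand. Its signal was 115.9 in the pooled list, 62.8 in replicate 1 and 49.4 in replicate 2, with ranks of 3358, 3094 and 4195. The replicate summits were 2 and 0 bp from the pooled one. A further 9 weaker pooled regions lay in the window. The highest, at rank 7232, lay 206 bp past the gene end in a coding exon, 2004 bp downstream of the rop-1 start. Others past the gene end, at ranks 26149, 29866 and 12516, also lay in coding exons and nearest to the rop-1 start. The akt-1 window therefore held 10 pooled regions, a count that 3.85% of protein-coding genes reached, all but 1 of them weak.

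At akt-2 (WBGene00000103, chromosome X from 14147700 to 14152070, plus strand) the summit lay between genes at 14146959, 741 bp upstream of the only start. The pooled signal was 195.9 at rank 1895. Replicate 1 gave 133.9 at rank 1326, and replicate 2 gave 52.6 at rank 3924. The position held in both replicates, within 15 bp, but the rank differed more than at pdk-1. Only 1 other pooled region lay in the akt-2 window, at rank 8908. The akt-1 window instead held a dense scatter of weak regions that in part lay past the gene end.

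The related kinase gene sgk-1 (WBGene00004789, chromosome X from 16254842 to 16262122, minus strand) had no thresholded region. Its best pooled region had its summit 10 bp upstream of the first start, with a signal of 50.7 and a rank of 8896. Replicate 1 placed a region at the same base with a signal of 24.8 and rank 9224, and replicate 2 with 23.2 and rank 10584. The position thus repeated to the base at a signal well below the threshold. A second pooled region, 121 bp upstream of an internal start, had a signal of 34.8 and ranked 14804. The 3 genes on chromosome X therefore ranged from the highest regions of the pathway, at pdk-1, to none past the threshold at sgk-1.

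**Figure D1:**
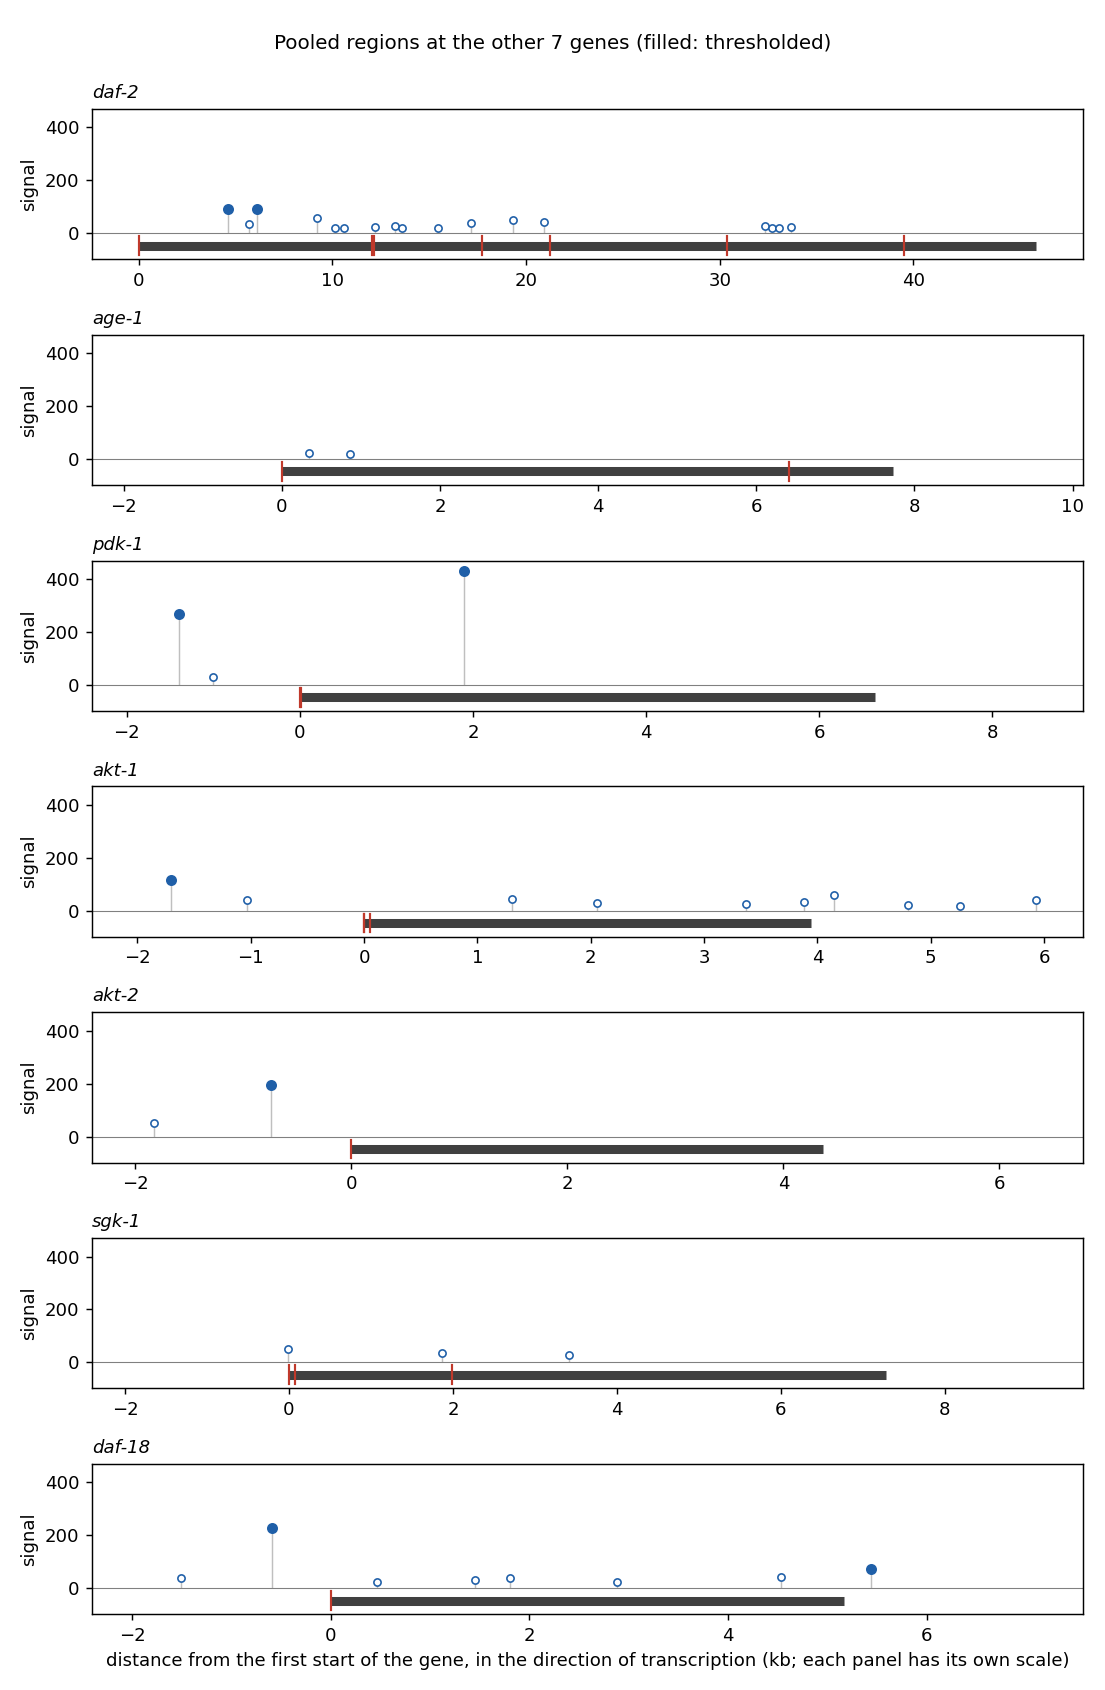
Pooled regions at the 7 genes other than daf-16, by the authors' signal value against the distance from the first start of the gene in kb. Each point is 1 region, filled where it is in the thresholded list and open where it is not, the dark bar is the gene and red ticks are annotated starts. The pdk-1 regions at 431.8 and 269.5 stand highest, and age-1 and sgk-1 have open points only.

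The phosphatase gene daf-18 (WBGene00000913, chromosome IV from 420011 to 425177, minus strand) had 2 thresholded regions that both lay nearer to another gene. The summit at 425771 was between daf-18 and garr-1, 594 bp upstream of the daf-18 start and 397 bp upstream of the garr-1 start. Its signal was 225.8 in the pooled list, 98.8 in replicate 1 and 106.9 in replicate 2, with ranks of 1595, 1938 and 1727. Both replicates placed the summit at the same base as the pooled list. The lists cannot say to which of the divergent genes the region belongs.

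The other daf-18 region, at 419738, lay 273 bp past the gene end in a coding exon of eri-1, which encodes an exonuclease that limits RNA interference, and 220 bp from the eri-1 start. With a signal of 73.8 it ranked 5475, just inside the threshold, whose last signal was 73.54 at rank 5501 and the next below 73.52. It overlapped a region of rank 8788 in replicate 1 and none in replicate 2. This was the lowest of the 15 regions and had no counterpart in 1 of the 2 replicates.

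The output of the pathway, the forkhead transcription factor gene daf-16 (WBGene00000912, chromosome I from 10750498 to 10776703, plus strand), carried 7 thresholded regions. It has 7 distinct starts over 26206 bp, which give 11 annotated transcripts. Of all 19973 protein-coding genes, 16 including daf-16 had 7 or more thresholded summits, and the highest count was 15. Of the 92 other genes at least as long, none had 7 and the median was 1, though daf-12, for example, at 30968 bp, had 6. The count did not come with high signals, since these ran from 75.1 to 160.1, and 63.4% of genes with a region had a best signal at least as high.

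**Figure D2:**
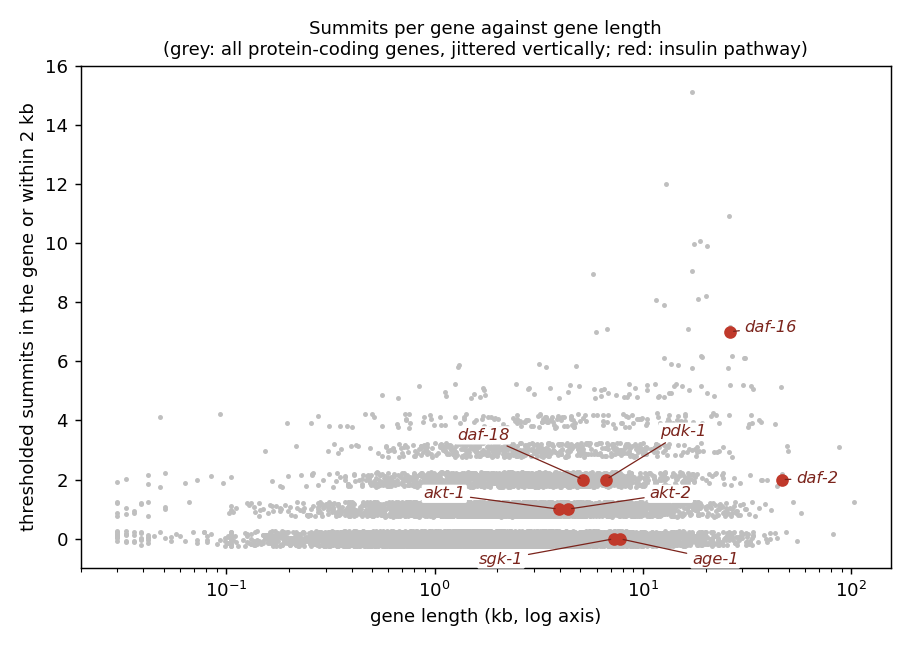
Thresholded summits in each protein-coding gene or within 2 kb of it, against gene length in kb on a log axis. Grey points are all protein-coding genes, shifted at random up or down for display, and red points are the 8 insulin pathway genes. The daf-16 point, at 7 summits, lies above the other 7 red points, which have 0 to 2.

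Of the 7 regions, 1 lay upstream of the gene. Its summit at 10750108 was 390 bp upstream of the first start and inside the small non-coding RNA genes H36N01.1 and H36N01.4, which lie on opposite strands. The signal was 101.8 in the pooled list, 64.2 in replicate 1 and 34.6 in replicate 2, with ranks of 3842, 3033 and 6366. Replicate 2 thus placed it outside its 5501 strongest regions.

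In the third intron of the longest transcript, a long intron downstream of the first group of starts, 3 regions followed. The highest of the gene, at 10752222, reached 160.1 in the pooled list, 49.9 in replicate 1 and 82.2 in replicate 2, with ranks of 2391, 3927 and 2400. The summit at 10757184, inside the non-coding RNA gene R13H8.4, reached 126.2, 53.1 and 41.3 in the same order, with ranks of 3068, 3677 and 5163. The third, at 10758110, reached 98.6, 48.0 and 34.1 and ranked 3990, 4119 and 6484. These intronic summits were at least 1262 bp from any start, and the first pair were among the strongest regions of both replicates.

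The remaining regions lay further along the gene or past its end. A summit at 10764154, in the fourth intron and exactly 500 bp downstream of the start at 10763654, had a signal of 75.1 and ranked 5360, close to the threshold. It ranked 10309 in replicate 1 and 6623 in replicate 2. In the sixth intron, a summit at 10769840 lay 1668 bp upstream of the start of the shorter transcript R13H8.1a.1. That region reached 110.6 in the pooled list, 65.8 in replicate 1 and 89.5 in replicate 2, with ranks of 3512, 2958 and 2176. The overlapping replicate summits of highest signal were 101 and 76 bp from the pooled one. A second region of replicate 1, with its summit at 10770014, a signal of 61.0 and a rank of 3192, also overlapped the pooled region. The last region, at 10777474, lay between genes 771 bp past the gene end, with signals of 117.0, 93.4 and 37.5 and ranks of 3320, 2052 and 5751. Its summit in replicate 2 was 157 bp from the pooled one, the largest shift of the 15 regions.

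Of the 7 daf-16 regions, 3 were therefore among the 5501 strongest of both replicates. Summits of 4 lay within 500 bp of a non-coding RNA gene, as did those of 6 of all 15 regions, beside 25.1% of all thresholded summits.

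**Figure D3:**
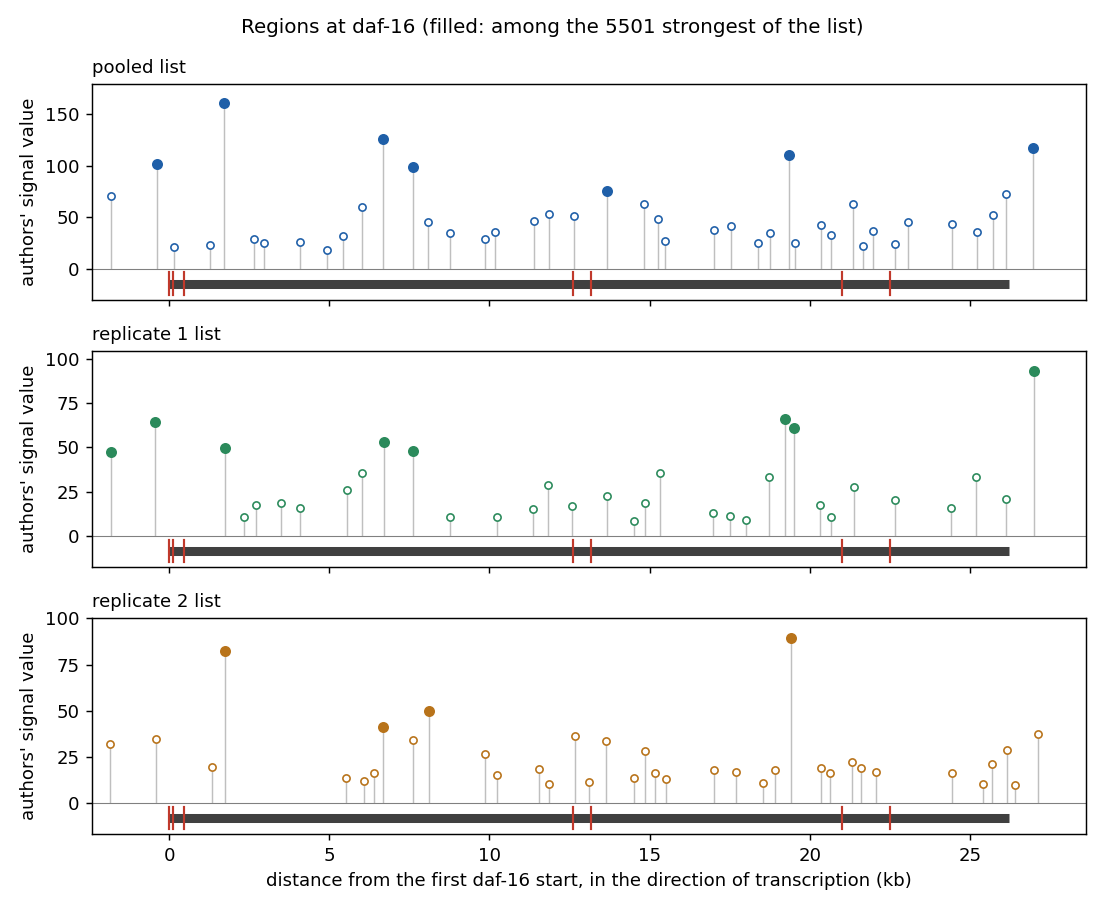
Regions at daf-16 in the pooled, replicate 1 and replicate 2 lists, by the authors' signal value against the distance from the first start in kb. Filled points are among the 5501 strongest regions of their list, open points are weaker, the dark bar is the gene and red ticks are its starts. The highest pooled region, at 160.1, lies inside the gene downstream of the first group of starts, and weaker regions are spread along the whole gene.

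Below the threshold, daf-16 was covered by many further regions. The window of 30.2 kb held 42 pooled regions, or 13.9 per 10 kb. This compares with 2.99 over the genome and 3.39 for all protein-coding genes summed gene by gene. Such a density was not particular to daf-16, since the shorter akt-1 window held 12.59 per 10 kb and the daf-18 window 8.73. At the remaining genes of the pathway it ran from 1.71 at age-1 to 3.38 at daf-2. By the number of pooled regions 2 genes reached 42, daf-16 itself and lin-14 with 43. The latter is a heterochronic gene named here after its value was seen. Replicate 1 listed 34 regions in the daf-16 window and replicate 2 listed 37. Of the 42 pooled regions, 7 lay within 500 bp of a daf-16 start, 2 of them past the threshold. Just outside the threshold, at ranks 5563 and 5793, were 2 daf-16 regions with signals of 72.8 and 70.5. The pattern at this gene was thus a high number of moderate and weak regions along the gene, and at pdk-1 a pair of strong ones.

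The replicates were compared by overlap with the pooled regions. Of the 15 thresholded regions, 13 overlapped some region of both replicate lists and 9 overlapped the 5501 strongest of both, which is 60% and close to the 64.8% of all thresholded regions. For the 13 seen in both, the median distance of the replicate summit from the pooled one was 18 bp in replicate 1 and 12 bp in replicate 2, and 4 were displaced by over 50 bp in either. These distances are bounded by the overlap that the match required. Ranks differed by over 1.5 times between the replicates in 8 of the 13. Replicate 1 gave the higher rank for 8 of them and replicate 2 for 5. In order of best pooled rank the genes ran pdk-1, daf-18, akt-2, daf-16, akt-1, daf-2, sgk-1 and age-1. The highest region of pdk-1 ranked above all others in both replicates, and those of sgk-1 and age-1 ranked below all others in both. Among the genes between them, the order of some neighbours changed with the replicate, since the akt-2 region, for example, ranked 1326 in replicate 1 and 3924 in replicate 2. The best daf-16 ranks, 2052 and 2176, were ahead of the best akt-1 ranks, 3094 and 4195, in both replicates. The daf-16 region of highest pooled signal ranked 3927 and 2400.

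**Figure D4:**
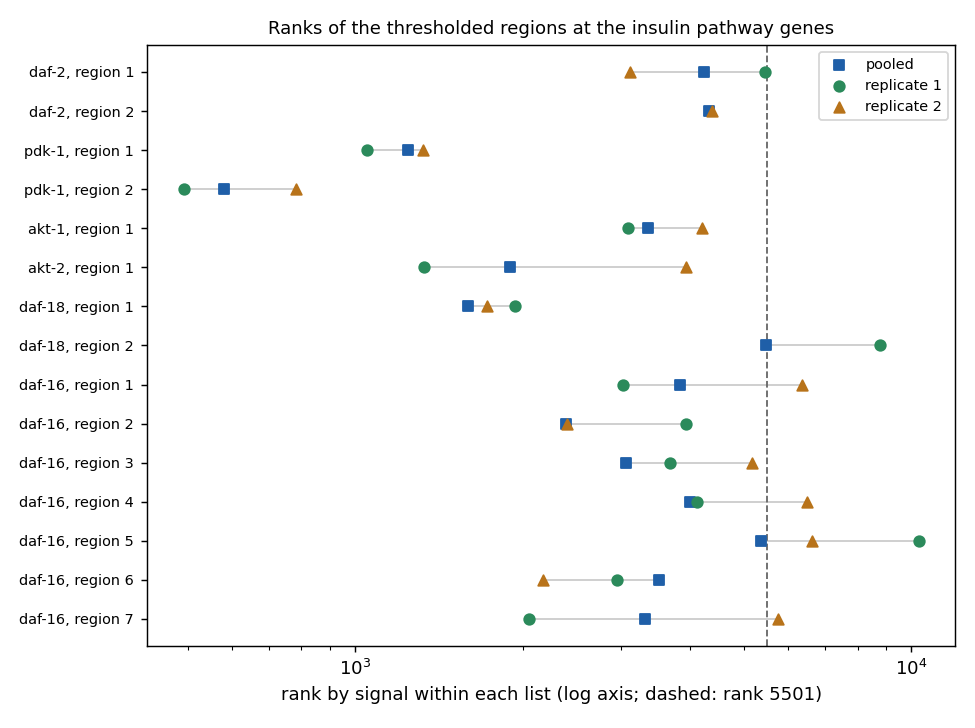
Rank by signal of each of the 15 thresholded regions in the pooled list, replicate 1 and replicate 2, on a log axis, numbered along each gene. Squares, circles and triangles mark the 3 lists, the grey line spans them and the dashed line is rank 5501. Both pdk-1 regions rank high in each list, and several daf-16 points of replicate 2 lie past the dashed line.

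Motif matches gave a further description of the 15 summits. Within 150 bp of the summit and on both strands, GAGAGA was present at 10 of 15, or 66.7%, beside 43.1% of all thresholded regions. TGATAAG, an element described near genes that respond to DAF-16, was present at 5, or 33.3%, beside 8.89%. TGTTTAC, the core sequence that DAF-16 binds, was present at 2, or 13.3%, beside 5.51%. In the narrower planned window, 100 bp on either side, TGATAAG was at 3 (20%, beside 7.02%), GAGAGA at 8 (53.3%, beside 37.8%) and TGTTTAC at 2 (13.3%, beside 4.13%). These counts are small and 7 of the regions belong to 1 gene, so they describe these windows only. Median GC was 43.9%, beside 40.2% for all.

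Other genes of the pathway and of its partners were counted by class, each beside the 31.8% of all protein-coding genes, and differences between classes were not tested. The class shares were not matched for gene length, although longer genes held a summit more often. Of 12 genes for ligands and adaptors, 1 (8.33%) had a thresholded region. It was aap-1, the adaptor subunit of the phosphoinositide kinase, with a signal of 635.4 at rank 291. That summit was 1 bp from the start of use-1 and 1638 bp from aap-1. The insulin-like peptide genes daf-28, ins-1, ins-3, ins-4, ins-6, ins-7, ins-18, ins-33 and ins-35 had none. The list holds only some of the peptide genes. Of all 39 genes named ins or daf-28, 5 (12.8%) had a region, namely ins-13, ins-17, ins-31, ins-37 and ins-39, none of which is in the list.

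Of 23 genes for regulators and partners of DAF-16, 16 (69.6%) had a thresholded region, with a median best signal of 208.6, beside 215.7 over all genes with a region. For 8 of the 16 the best summit was nearest to a start of the gene itself and for the other 8 nearest to another gene. The highest were math-33, a deubiquitinating enzyme, at 665.7 but nearest to erfa-3, eak-6 at 649.2 but nearest to rae-1, ddl-1 at 585.5 but nearest to zyg-1, and smk-1 at 463.1 but nearest to vps-60. Values at these leading genes thus cannot be assigned to the pathway gene. By contrast, sir-2.1, a sirtuin deacetylase, had a summit 48 bp from its own start with a signal of 224.9, named here after its value was seen.

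In the branch of the TOR kinase 5 of 9 genes (55.6%) had a region. They were rict-1, the Rictor subunit of a TOR complex, at 1438, let-363, the TOR kinase, at 687.5, the small GTPase gene rheb-1 at 575.4, ragc-1 at 376.3 and rsks-1, the ribosomal protein S6 kinase, at 254.9. The rheb-1 summit was 289 bp from its own start, and the rsks-1 summit was also nearest to its own gene. The rict-1 summit was nearest to gfm-1, the ragc-1 summit to rps-11, and the let-363 summit, 15979 bp past the let-363 start, to vep-1. Of 22 known target genes of DAF-16, 8 (36.4%) had a region, a share near that of all genes. Their highest signals were at the small heat shock protein genes sip-1 (571.1) and hsp-12.6 (397.8), at icl-1 of the glyoxylate cycle (376.4) and at the transcription factor gene mdl-1 (253.3). Of these, the mdl-1 summit was nearest to its own start. The superoxide dismutase gene sod-3, the metallothionein genes mtl-1 and mtl-2 and the catalase genes ctl-1 and ctl-2 had none.

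Among the other pathways of dauer control, 4 of 7 genes of the TGF-beta branch (57.1%) and 1 of 3 of the steroid hormone branch (33.3%) had a region. In the first, daf-5 had 6 thresholded regions with a best signal of 193.9, daf-14 reached 222.3, daf-3 reached 120.8 and daf-8 reached 76.8. In the second, the nuclear receptor gene daf-12 also had 6, with a best signal of 310.2. No gene of either branch had a thresholded summit within 500 bp of an own start, beside 16.6% of all protein-coding genes. With so few genes this difference was not tested.

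**Figure D5:**
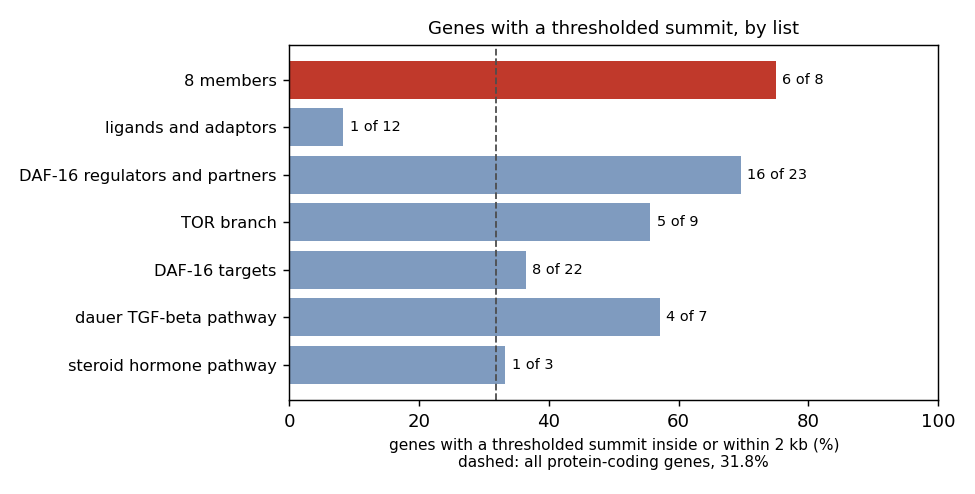
Share of genes in each list that had a thresholded summit inside the gene or within 2 kb, in percent, with the number of genes at the end of each bar. The dashed line is the 31.8% of all protein-coding genes, and the red bar is the 8 insulin pathway genes. Ligands and adaptors lie below the line at 8.33%, and the regulators of DAF-16 reach 69.6%.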

How the data were processed

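MES-2 was mapped by chromatin immunoprecipitation and sequencing in 2 biological replicates of 1 group. The deposited files used are 4 region lists on ce11 in narrowPeak layout. Per the submitters' file lists, the authors made 1 list per replicate and 1 from pooled alignments against a control alignment, and thresholded the pooled list by irreproducible discovery rate. The authors' signal column holds a value per region on a scale that no header or label states. The deposited −log10 q column was used only for the relaxed list (at least 2, 17622 regions). No aligner or peak caller is named there, and depth is unknown.

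Summits were assigned to genes of the Ensembl 115 annotation of WBcel235, whose chromosome lengths held all regions of the 4 lists. Positions are 1-based. Lists on ce10 were not used here. Counts and ranks were computed with Python 3.11.15 and numpy 2.4.6, and the assignment was tested on simulated summits. A motif count covers both strands. The genes named are the 8 members, up to 4 genes of highest signal in each wider list, the genes nearest to member summits and the neighbours of the highest member region in signal order. Others, named to complete a count or a class, were chosen after their values were seen. The members and lists were chosen with earlier results of these data known, and no test was made. The alternatives varied the flank, window, overlap, list and replicate.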

Additional observations from a re-analysis of the deposited data

How the results depend on the processing

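The counts depended most on the flank and on the list. With no flank, 3 of the 8 genes had a thresholded region, beside 7.27% of all protein-coding genes, and the regions numbered 8, because upstream and downstream summits were left out. The strongest 2750 regions of the list left 5, and the relaxed pooled list gave 56. Leaving out 1 replicate gave 6 genes in each case and 11 to 15 regions. The number of genes with a summit at an own start was 0 in the strongest 2750 and with a window of 250 bp, 3 in the relaxed list and with a window of 1 kb, and 0 to 1 when 1 replicate was left out. Regions seen in both replicates fell to 3 when only the strongest 2750 of each replicate counted, and numbered 10 to 12 when 1 replicate was left out and the other alone had to hold the region.

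In the wider lists, ligands and adaptors had 0 of 12 genes with a flank of 500 bp, beside 22.3% of all protein-coding genes. In the relaxed list they had 3, beside 47.1%. DAF-16 targets had 5 of 22 in the strongest 2750, beside 22.1%. The TGF-beta branch had 2 of 7 with a flank of 500 bp (beside 22.3%) and 2 in the strongest 2750 (beside 22.1%). The steroid branch had 2 of 3 in the relaxed list (beside 47.1%). It had 1 to 2 when 1 replicate was left out (beside 32% to 33.1%). With a flank of 500 bp the best pooled rank of akt-1 went from 3358 to 7232 and that of daf-18 from 1595 to 5475, and akt-2 had no pooled region. No paired analysis was possible because the series has 1 group. The cause of these shifts was not tested. Depth, which is unknown, limits what the absence of a region can show.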

Other observations

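A few regions at these genes were strong in 1 replicate and not in the thresholded list. In the first daf-2 intron, replicate 1 listed a region with its summit at 3037464, a signal of 61.0 and a rank of 3189. The overlapping region of replicate 2 ranked 10474, and the pooled list held no overlapping region. At daf-16, replicate 1 ranked the summit at 10748674 at 4192, where replicate 2 gave 7101 and the pooled list 5793. Replicate 2 ranked a daf-16 summit at 10758621 at 4184, with no overlapping region in replicate 1 and a pooled rank of 10211.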
